A study of Mus musculus with 5 samples.

Results

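The visceral endoderm, the outer epithelium of the early mouse embryo and of its yolk sac, secretes plasma proteins, and 10 genes of such proteins were followed here: Afp, Ttr, Alb, Apoa1, Apoa2, Apoa4, Apob, Trf, Rbp4 and Spink1. They were found on the array by the gene name given for each probe, by a known synonym or by a RefSeq accession. This gave 14 of 28845 probes, and 10 of the 24800 genes or unnamed transcripts that the array resolves. Alb and Trf had 3 probes each and the other genes 1 each. Where a gene had several probes, the brightest by measured signal stood for it. The files give Alb under the older symbol Alb1 and Spink1 under Spink3.

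RNA came from marker-positive mouse cells isolated before or during differentiation as embryoid bodies, aggregates of stem cells that form heart tissue in culture. The 4 populations were undifferentiated stem cells positive for Rex1 at day 0, early mesoderm positive for Bra at day 4.5, cardiac mesoderm positive for Flk1 at day 4.5, and, at day 7.5, Nkx2.5-positive progenitors of the heart. The sources used here do not give the cell line, the genotype or the way the cells were isolated. The populations were compared pairwise on 5 two-colour arrays, 1 array per pair, without replicates and without exchanging the dyes. Rex1 RNA always carried Cy3 and Nkx2.5 RNA always Cy5, on 3 arrays each, while Bra and Flk1 RNA carried Cy5 beside Rex1 and Cy3 beside Nkx2.5. No test between populations could therefore be made, and each value below describes these 4 RNA pools.

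Before the liver forms, the visceral endoderm supplies the embryo with much of what the liver later puts into the blood. It takes up nutrients at its surface, assembles lipoproteins and secretes carriers for retinol, thyroid hormone, iron and fatty acids. In embryoid bodies a similar epithelium can form on the outside of the aggregate, and alpha-fetoprotein and transthyretin are its classical products. Many of these genes are known targets of the transcription factors HNF1, HNF4, FOXA and GATA.

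Every comparison has 2 readings. The first is the log2 ratio on the array hybridised with that pair, and the second is worked out from the other arrays that link the pair. From Rex1 to Nkx2.5 there are 2 such routes, by way of Bra and of Flk1, and the second reading is their mean. Bra and Flk1 were never on 1 array, so there the first reading runs through Rex1 and the second through Nkx2.5. A gene was called higher or lower where both readings reached 1 in size, a fold of 2, with the same sign, and if the population with more signal exceeded percentile 95 of 96 negative control spots on every array of it, here called well above background. Over all genes the difference between routes had an SD of 0.391 (Bra) and 0.439 (Flk1), which gives an average error of 0.24 (log2) for 1 array if errors are equal and independent. The median net signal was 0.308 to 0.345 times the local background in the Rex1 channel and 0.613 to 1.52 times in the other channels, and 77.6% to 95.2% of probes were well above background per channel. Of the genes that name the populations, Zfp42, the gene of Rex1, was lower in Nkx2.5, Bra and Flk1 than in Rex1 cells, with first readings of -1.68, -1.74 and -1.76. T (Bra over Rex1 1.07 and 0.73), Kdr (Flk1 over Rex1 0.68 and 0.64) and Nkx2-5 (Nkx2.5 over Rex1 0.53 and 0.91) were not called.

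RefSeq promoter windows of 250 bases before and 50 bases after the transcription start (build GRCm38.p6) were matched for 7 of the 10 genes. Ttr, Trf and Spink1 were not among them, so of the genes called higher in Nkx2.5 cells below only Afp was searched. The stretches before the start are shown for Afp and Alb, which are neighbours on 1 chromosome and whose values below were far apart, and for Apoa1, whose level was highest in another population than that of Afp. Capitals mark the letters GTTAAT of an HNF1 half-site and TGTTTGC of a FOXA site, or their reverse complements, and all 3 stretches lie on the plus strand.
Afp, chr5:90490464-90490713: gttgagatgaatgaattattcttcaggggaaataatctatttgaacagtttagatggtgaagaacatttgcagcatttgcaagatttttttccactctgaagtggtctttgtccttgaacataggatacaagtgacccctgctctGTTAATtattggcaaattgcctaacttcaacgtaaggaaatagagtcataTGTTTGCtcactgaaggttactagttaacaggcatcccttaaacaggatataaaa
Alb, chr5:90460620-90460869: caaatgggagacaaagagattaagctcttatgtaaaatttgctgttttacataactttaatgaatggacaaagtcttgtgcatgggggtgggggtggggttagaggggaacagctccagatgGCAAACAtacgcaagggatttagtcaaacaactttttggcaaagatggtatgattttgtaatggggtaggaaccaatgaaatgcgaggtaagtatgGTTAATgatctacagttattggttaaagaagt
Apoa1, chr9:46228380-46228629: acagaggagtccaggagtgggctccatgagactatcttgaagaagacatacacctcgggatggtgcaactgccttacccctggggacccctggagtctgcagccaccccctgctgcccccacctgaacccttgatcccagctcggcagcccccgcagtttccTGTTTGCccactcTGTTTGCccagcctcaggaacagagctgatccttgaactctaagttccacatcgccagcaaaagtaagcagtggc
In Afp the half-site begins 105 bases and the FOXA letters 55 bases before the start. In Alb they begin 32 bases and, on the minus strand, 128 bases before it, and in Apoa1 the FOXA letters occur 88 and 75 bases before it. Both strands were searched for 6 motifs in the full windows. The 7 genes have 9 windows, since Apoa2 and Rbp4 have 2 each. GTTAAT was found in 2 of the 9, those of Afp and Alb, and in 7.1% of all 32851 windows. TGTTTGC or the related FOXA letters TGTTTAC were found in 6 of the 9, with a match in every gene but Apoa4 and in 1 of the 2 windows of Apoa2 and of Rbp4, against 8.48% of all windows. The HNF4 core CAAAGTCCA (0.475% of windows) and the GATA letters AGATAA (11.2%) were found in 0 of 9, and the GATA letters TGATAA (9.05%) in Apoa1 alone. A match describes letters and does not show that a factor binds.

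Afp, Ttr and Spink1 were higher in Nkx2.5 cells than in Rex1 cells, and the other 7 genes were neither higher nor lower. That is 3 of 10 genes called higher, or 3 of the 9 that were bright enough to be called, against 2.6% of the 22530 genes and transcripts that could be called, and 0 of 10 called lower, against 0.737%. The median over the 10 genes was 0.33 in the first and 0.37 in the second reading, against 0.02 and 0.02 over all genes. The same 3 genes were higher in Nkx2.5 cells than in Bra cells, where 0.3% of 22686 genes were called higher and 0.0661% lower. Ttr and Spink1 were also higher in Nkx2.5 cells than in Flk1 cells, where 0.324% of 22849 were called higher and 0.0919% lower. The medians of the 10 genes in these comparisons were 0.28 and 0.36 over Bra, and 0.03 and 0.21 over Flk1. The 10 genes were chosen with earlier results of these data known, so their shares of calls describe these genes and are no separate evidence. In a pool of cells, more cells that make an RNA and more of that RNA in each cell cannot be told apart. The calls depended on background subtraction. Without it the first and second readings over Rex1 shrank to 0.41 and 0.67 for Afp, 0.99 and 0.95 for Ttr and 0.89 and 0.73 for Spink1, none of which passed, and of the 10 genes only Spink1 was still called over Bra and over Flk1.

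**Figure D1:**
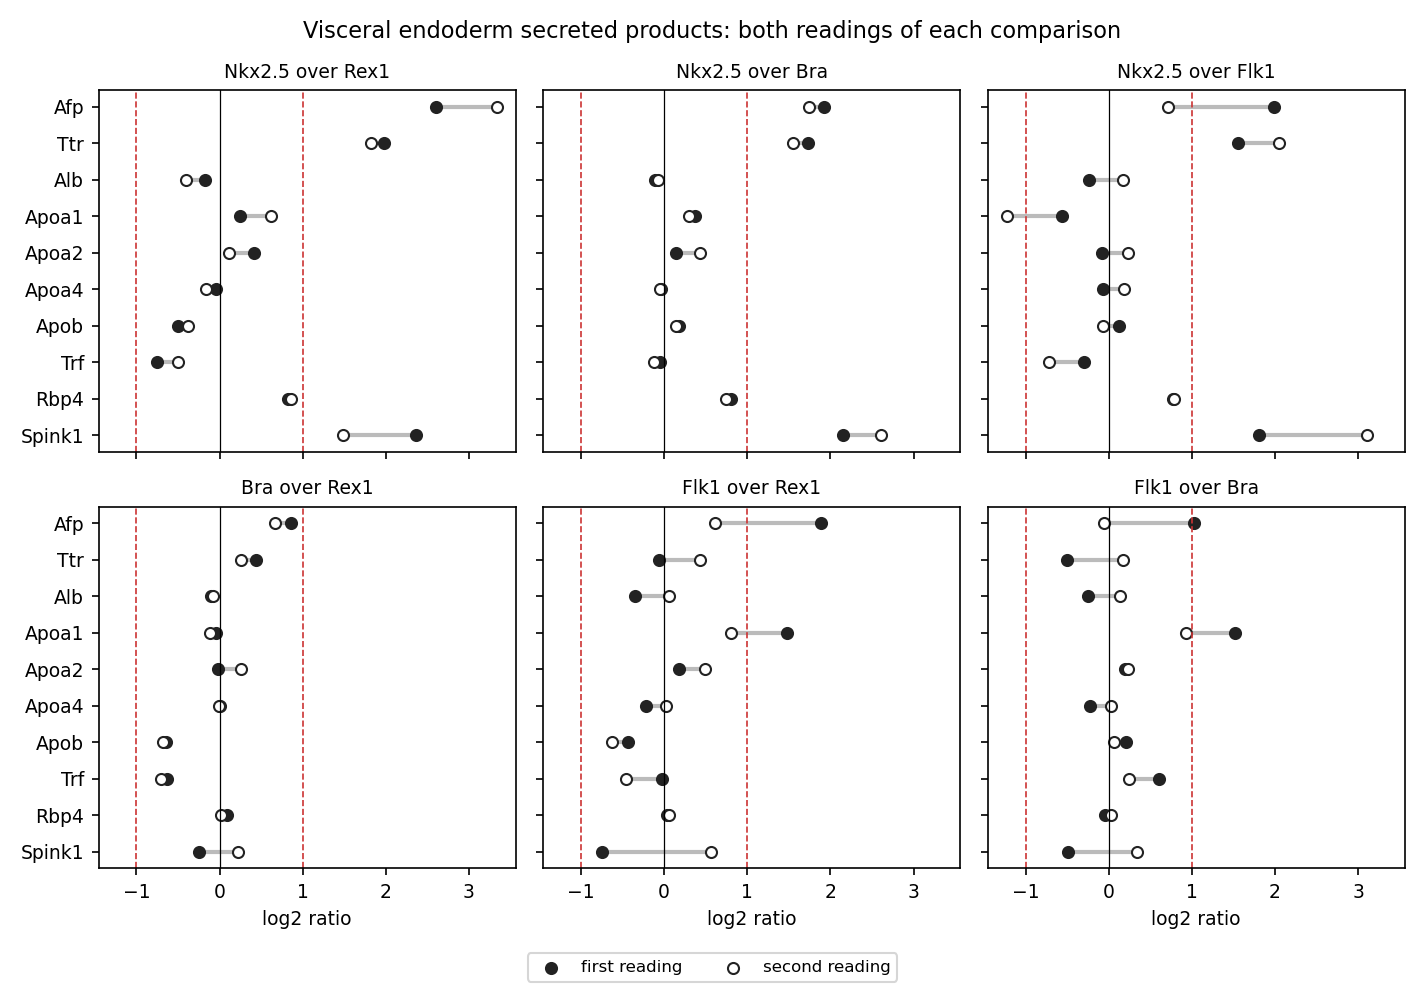
Log2 ratio of each of the 10 genes in the 6 comparisons, with the first reading as a filled and the second as an open circle joined by a grey line. Dashed lines mark -1 and 1, the sizes both readings had to reach. Afp, Ttr and Spink1 lie past 1 in both readings over Rex1 and over Bra, Ttr and Spink1 also over Flk1, and Rbp4 sits near 0.8 in all 3 comparisons with Nkx2.5.

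Alpha-fetoprotein (Afp) is the main serum protein of the fetus and binds fatty acids, and albumin (Alb) is its counterpart after birth. In multiples of the median net signal of the channel, Afp stood at 1.97, 2.04 and 2.29 in Nkx2.5 cells on the arrays beside Rex1, Bra and Flk1, against 0.465 in Rex1 cells, 0.804 in Bra cells and 0.801 in Flk1 cells on the same arrays. On the arrays beside Rex1, it stood at 0.743 in Bra cells and 0.974 in Flk1 cells, against 0.482 and 0.354 in Rex1 cells. Each Nkx2.5 value lay above each value of the other populations, and the Rex1 values were the lowest and were not well above background on any of its 3 arrays. The log2 ratio of Afp was 2.60 and 3.33 in Nkx2.5 over Rex1 and 1.93 and 1.74 in Nkx2.5 over Bra. Because Rex1 was dim, the fold over it is uncertain. The floor set by the dimmest detected probes gives 6.90-fold, which lies above the 6.06-fold of the first reading and below the 10.1-fold of the second, so it is no minimum.

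In Nkx2.5 over Flk1 the readings of Afp, 1.98 and 0.71, were on either side of the threshold, and Afp was not called. Its routes through Flk1 differed by 1.27 (log2), far more than the average error, while those through Bra differed by 0.19. Between the earlier stages, Afp read 0.86 and 0.67 in Bra over Rex1 and 1.89 and 0.62 in Flk1 over Rex1, neither of which passed in both readings. The comparison of Flk1 with Bra gave 1.03 and -0.06.

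Alb, the gene next to Afp, showed no such pattern. Its brightest probe (X13060) stood at 1.47, 1.30 and 1.26 channel medians in Nkx2.5 cells, against 1.66 in Rex1, 1.37 in Bra and 1.50 in Flk1 cells on the same arrays. These values overlapped, and the log2 ratios of Nkx2.5 over Rex1 were -0.18 and -0.40. Over Bra they were -0.11 and -0.08, and over Flk1 -0.24 and 0.17. A second probe (AJ011413) gave 0.07 and 0.33 over Rex1, and the third (AK010025) gave 0.47 and -0.08 but was dim in most channels, so the probes did not share a sign. Afm, which encodes the vitamin E binding protein afamin and is the next gene beyond Afp, read -0.72 and -0.26 in Nkx2.5 over Rex1 and was not called in any of the 6 comparisons.

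Transthyretin (Ttr) carries thyroid hormone and holds retinol-binding protein (Rbp4), the carrier of retinol, in a complex in the blood. Ttr stood at 4.90, 3.80 and 4.38 channel medians in Nkx2.5 cells beside Rex1, Bra and Flk1, against 1.44 in Rex1, 1.46 in Bra and 1.88 in Flk1 cells on the same arrays. On the arrays beside Rex1 it stood at 0.559 in Bra cells and 0.748 in Flk1 cells, against 0.439 and 0.806 in Rex1 cells. The Nkx2.5 values did not overlap with those of any other population, and 2 of the 3 Rex1 values were well above background. The log2 ratio of Ttr was 1.98 and 1.83 in Nkx2.5 over Rex1, folds of 3.95 and 3.54. It was 1.73 and 1.55 over Bra and 1.55 and 2.05 over Flk1, so Ttr passed in all 3 comparisons. Among the earlier populations no reading of Ttr passed 0.5 in size: Bra over Rex1 gave 0.43 and 0.25, Flk1 over Rex1 -0.06 and 0.43, and Flk1 over Bra -0.50 and 0.17.

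Rbp4 had close readings in each comparison with Nkx2.5 and stayed under the threshold. It stood at 3.88, 2.99 and 3.63 channel medians in Nkx2.5 cells, against 2.41 in Rex1, 1.87 in Bra and 2.54 in Flk1 cells on the same arrays. The Nkx2.5 values lay above every value of the other populations, the highest of which was 2.54. The log2 ratio was 0.83 and 0.85 over Rex1, 0.81 and 0.74 over Bra, and 0.77 and 0.79 over Flk1, first-reading folds of 1.77, 1.75 and 1.71. Its routes closed to within 0.07 through Bra and 0.01 through Flk1. Bra over Rex1, Flk1 over Rex1 and Flk1 over Bra all lay between -0.05 and 0.09. The receptor for retinol-bound Rbp4, Stra6, read 0.42 and -0.11 in Nkx2.5 over Rex1 and was not called.

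Spink1 encodes a secreted Kazal-type inhibitor of trypsin, best known from the pancreas. It stood at 4.69, 3.76 and 4.55 channel medians in Nkx2.5 cells beside Rex1, Bra and Flk1, against 1.09 in Rex1, 1.19 in Bra and 1.67 in Flk1 cells on the same arrays. On the arrays beside Rex1 it stood at 0.657 in Bra cells and 0.421 in Flk1 cells, against 0.763 and 0.676 in Rex1 cells. The Nkx2.5 values lay above all others, those of Rex1, Bra and Flk1 overlapped one another, and Spink1 was well above background in every channel. The log2 ratio was 2.37 and 1.48 over Rex1, 2.15 and 2.61 over Bra, and 1.80 and 3.11 over Flk1. The paired readings differed widely, with a gap of -1.30 between the routes through Flk1 and -0.46 through Bra. Of 8 genes of a pancreas list, 5 were on the array (Pdx1, Ptf1a, Cpa1, Ins1 and Cela1), and 0 were called in any of the 6 comparisons. Over all genes 0.00442% to 2.6% were called per comparison and direction, so 0 of 5 says little about these genes.

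**Figure D2:**
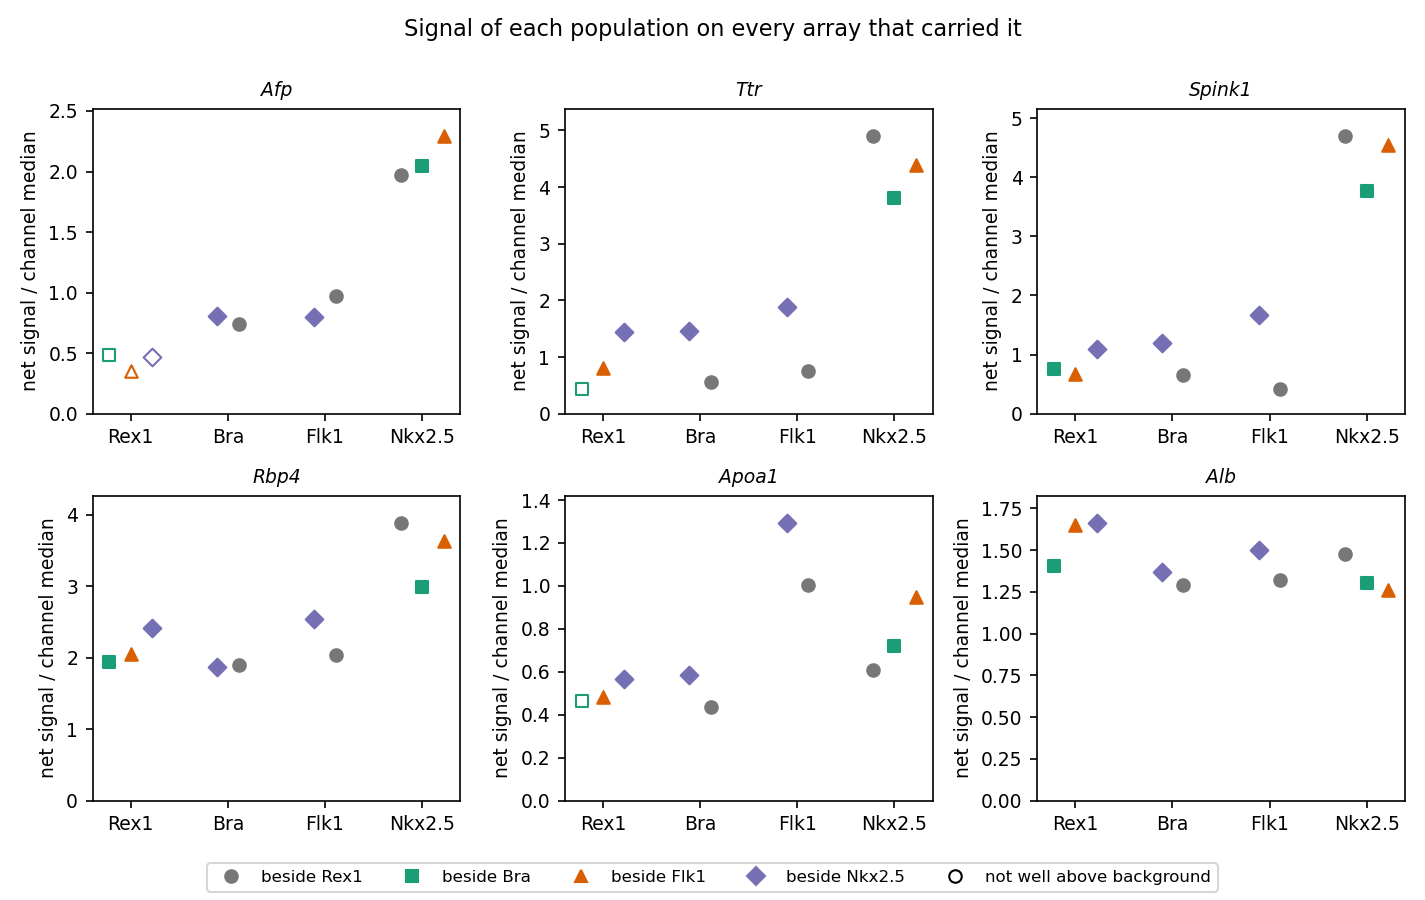
Net signal of 6 of the genes in each population, divided by the median net signal of the channel, with 1 point per array. Colour and shape give the population on the other channel of that array, and open symbols were not well above background. The Nkx2.5 points of Afp, Ttr, Spink1 and Rbp4 lie above those of the other populations, Apoa1 is highest in Flk1, and Alb overlaps throughout.

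The signal of Ttr and Spink1 in an earlier population depended on the array. For Ttr the Bra value was 1.46 channel medians beside Nkx2.5 and 0.559 beside Rex1, a log2 difference of 1.38, and for Flk1 the difference was 1.33. For Spink1 the differences were 0.86 in Bra and 1.99 in Flk1. Over all genes the median difference was -0.08 in Bra and 0.02 in Flk1. For Afp the differences were 0.11 and -0.28, and for Rbp4 -0.02 and 0.32. In Rex1 cells Ttr stood at 1.44 beside Nkx2.5, against 0.439 beside Bra and 0.806 beside Flk1. Spink1 stood there at 1.09, against 0.763 and 0.676. Afp stood there at 0.465, against 0.482 and 0.354, and Rbp4 at 2.41, against 1.94 and 2.05. The dye of Bra and Flk1 changed with the partner, while Rex1 RNA always carried Cy3. The part of dye or partner in the values was not tested.

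Apolipoproteins carry lipids in the blood: Apoa1 and Apoa2 are the main proteins of high-density lipoprotein, Apoa4 is a lipid-binding protein of chylomicrons, and Apob is the scaffold of the low-density and very-low-density particles. None of these 4 genes was called in any comparison. Apoa1 had its highest values in Flk1 cells. It stood at 1.29 channel medians in Flk1 cells beside Nkx2.5 and at 1.004 beside Rex1, against 0.948 in Nkx2.5 and 0.484 in Rex1 cells on those arrays. Both Flk1 values lay above all values of the other populations, which ran from 0.434 to 0.948. The log2 ratio of Apoa1 was 1.48 and 0.81 in Flk1 over Rex1 and 1.52 and 0.93 in Flk1 over Bra, each short of the threshold in the second reading. In Nkx2.5 over Flk1 it was -0.56 and -1.23, over Rex1 0.25 and 0.62, and over Bra 0.37 and 0.29. In Bra over Rex1 it was -0.04 and -0.12.

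Apoa4 and Apoc3 lie beside Apoa1 in the genome, followed by Apoa5. Apoa4 stood at 1.80, 1.70 and 1.72 channel medians in Nkx2.5 cells, against 1.86 in Rex1, 1.71 in Bra and 1.91 in Flk1 cells on the same arrays. Its readings in all 6 comparisons lay between -0.23 and 0.19. In Flk1 over Rex1, where Apoa1 read 1.48 and 0.81, Apoa4 read -0.22 and 0.03, Apoc3 -0.00 and -0.02, and Apoa5 0.07 and 0.27. Apoc3 was not well above background in Rex1 on any array.

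Apoa2 and Apob were close to background. Apoa2 stood at 0.307, 0.389 and 0.456 channel medians in Nkx2.5 cells, against 0.215 in Rex1, 0.336 in Bra and 0.490 in Flk1 cells on the same arrays, and was not well above background in Rex1 on any of its 3 arrays. Its readings over Rex1 were 0.41 and 0.12. Apob (probe X15191) stood at 0.198, 0.504 and 0.355 channel medians in Nkx2.5 cells, against 0.366 in Rex1, 0.441 in Bra and 0.328 in Flk1 cells, and was above background on 2 of the 3 arrays in Nkx2.5 and on 0 of 3 in Rex1. Its readings of -0.50 and -0.38 over Rex1 compare signals near background. Another 4 probes carry no gene name but a description that names Apob. They fall outside the rule for members, and 2 of them read higher in Nkx2.5 cells, as given in the closing section.

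Transferrin (Trf) binds and delivers iron. Its brightest probe (AF440692) stood at 0.728, 0.913 and 1.09 channel medians in Nkx2.5 cells, against 1.12 in Rex1, 0.945 in Bra and 1.31 in Flk1 cells on the same arrays. On each array Nkx2.5 was the dimmer channel, but values overlapped between arrays. The log2 ratio was -0.75 and -0.50 over Rex1, -0.04 and -0.12 over Bra, and -0.29 and -0.72 over Flk1, and Trf was called in none of them. The second probe (S67218) gave -0.30 and -0.67 over Rex1 and the third (BC008559) -0.02 and -0.52, so all 3 probes read below 0. The transferrin receptor gene Tfrc read 0.21 and 0.21 and Tfr2 -0.03 and -0.09 in Nkx2.5 over Rex1.

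**Figure D3:**
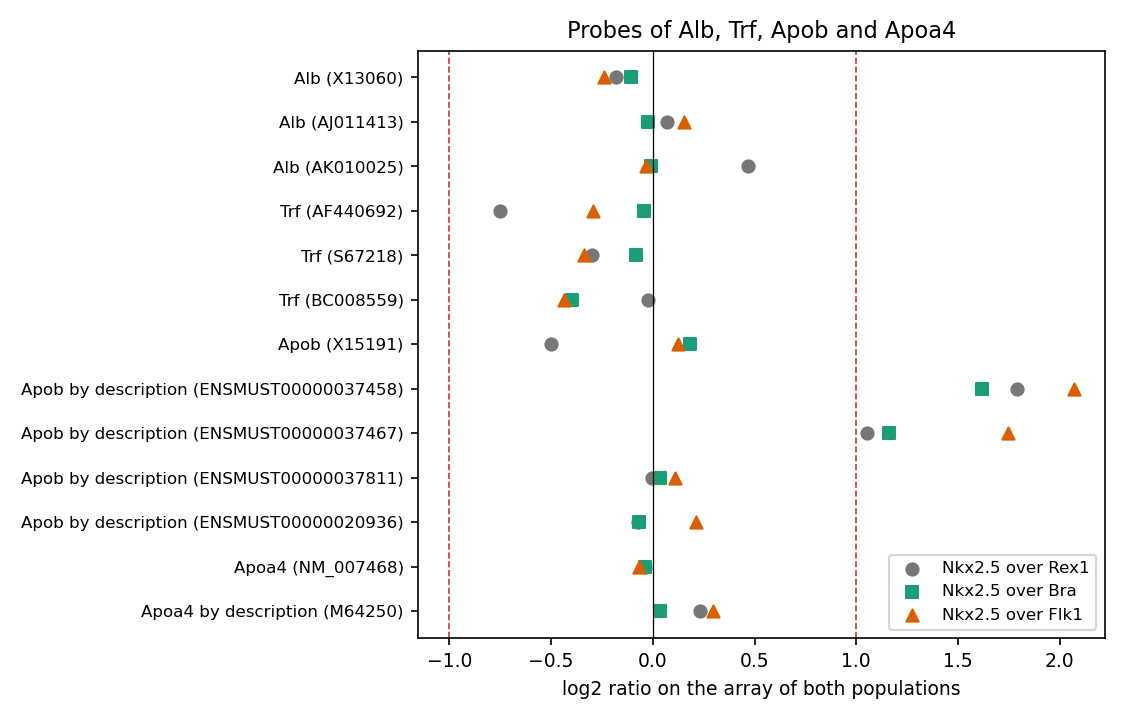
Log2 ratio on the array of both populations for each probe of Alb, Trf, Apob and Apoa4, including probes assigned to Apob or Apoa4 only by their description. Symbols give the population set against Nkx2.5, and dashed lines mark -1 and 1. The 3 Alb and 3 Trf probes lie inside the dashed lines, and 2 of the 4 probes described as Apob lie past 1 over Rex1, Bra and Flk1.

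Among the earlier populations 0 of the 10 genes were called in any direction. In Bra over Rex1, 1.18% of 22073 genes were called higher and 0.249% lower, and in Flk1 over Rex1, 0.678% of 22139 were called higher and 0.28% lower. In Flk1 over Bra 0.0221% of 22614 were called higher and 0.00442% lower. The medians of the 10 genes were -0.03 and 0.01 in Bra over Rex1, -0.05 and 0.24 in Flk1 over Rex1, and 0.07 and 0.15 in Flk1 over Bra. Apob and Trf had the lowest readings in Bra over Rex1, at -0.64 and -0.68 for Apob and -0.63 and -0.71 for Trf.

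Fitting all 5 ratios together by least squares, with Rex1 set to 0, gave 1 combined log2 level per gene and population. In the order Bra, Flk1, Nkx2.5 the combined level of Afp was 0.95, 1.44 and 2.97, that of Ttr 0.31, 0.14 and 1.90, and that of Spink1 -0.24, -0.31 and 1.92. Ttr, Spink1 and Rbp4 shared 1 shape, with the earlier populations within 0.31 of Rex1 and a step to Nkx2.5. The level of Rbp4 was 0.06, 0.05 and 0.84. Afp also had Bra and Flk1 levels of 0.95 and 1.44 above Rex1, which was dim for it. Apoa1 was at 0.01, 1.24 and 0.44, with Flk1 above Nkx2.5 by 0.80.

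The size of each step between neighbouring levels was set against the average array error, which gives 0.17 to 0.24 for a difference of levels. This error covers hybridisation alone, each population is 1 RNA pool, and dye and population were tied for Rex1 and Nkx2.5, so the step sizes describe these arrays and do not test the populations. The step to Nkx2.5 was larger than 2 such errors for Afp, Ttr, Rbp4 and Spink1. Steps among Rex1, Bra and Flk1 were within 2 errors for Ttr, Rbp4 and Spink1. For Apoa1 the step between Rex1 and Bra was within 2 errors, while those from Bra to Nkx2.5 (0.43) and from Nkx2.5 to Flk1 (0.80) were larger, although neither comparison was called. Neighbouring steps of Alb, Apoa2, Apoa4 and Trf were within 2 errors, but for Trf they added up, with Nkx2.5 at -0.62 and Bra at -0.60 relative to Rex1. The steps of Apob were within 2 errors except that between Nkx2.5 and Rex1, of 0.44, in signals near background. For Afp, whose routes through Flk1 differed by 1.27, and Spink1, where they differed by 1.30 in size, the average error understates the uncertainty.

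**Figure D4:**
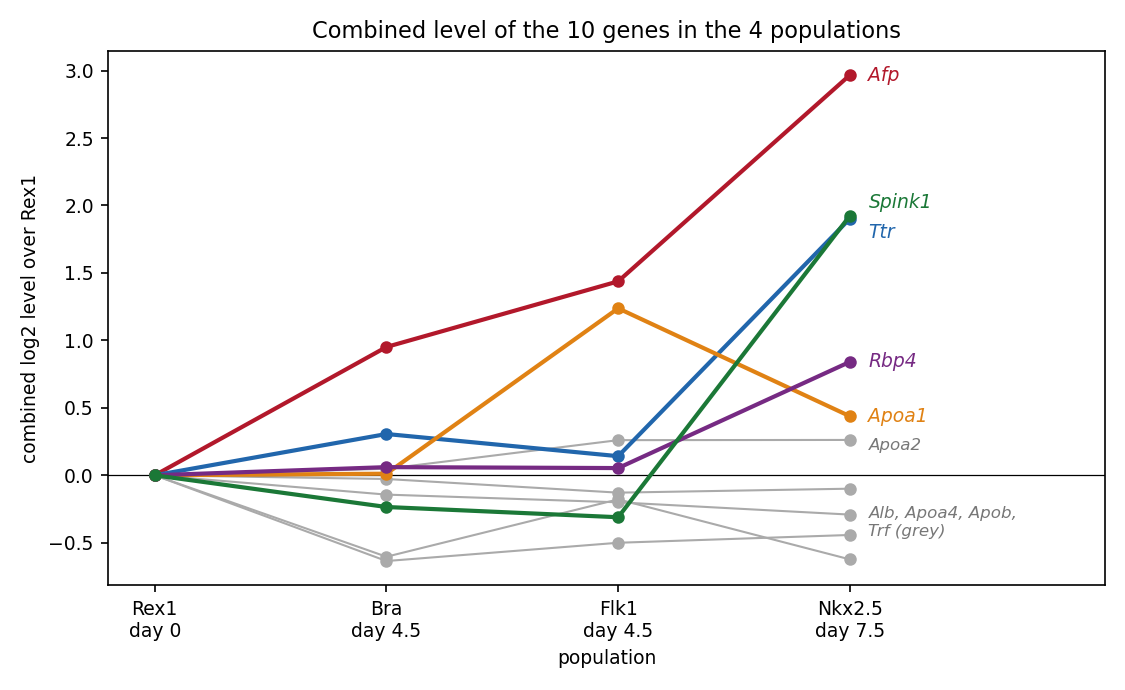
Combined log2 level of the 10 genes over Rex1 in the 4 populations, from all 5 arrays. Each line is a gene, and there is no replicate and therefore no error bar. Afp reaches 2.97, Spink1 1.92, Ttr 1.90 and Rbp4 0.84 in Nkx2.5, Apoa1 is highest in Flk1 at 1.24, and the 5 grey genes stay between -0.64 and 0.26.

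Other lists of endoderm genes were read with the same rule, against 2.6% of all genes called higher in Nkx2.5 over Rex1, 0.3% over Bra, 0.324% over Flk1 and 1.18% in Bra over Rex1. These lists, like those of blood and heart muscle below, were chosen with earlier results of these data known. Of 15 regulators of primitive and visceral endoderm, 1 was called higher in Nkx2.5 over Rex1, Sox17, at 1.34 and 1.82. The list medians were 0.18 and 0.13. Sox17 was also higher in Bra over Rex1, at 1.24 and 1.19, as was Cer1, which encodes a secreted inhibitor of Nodal and BMP, at 1.21 and 1.21. Among factors that act on the secreted products in the liver, Hnf4a read -0.15 and -0.19 and Foxa2 0.27 and 0.29 in Nkx2.5 over Rex1. Gata6 read 0.18 and 0.13 there. Gata4 read 0.01 and 0.35, but it was not well above background in Rex1 on any array, nor on every array in Nkx2.5. Foxa1 read 0.81 and 0.89, short of the threshold. Of the other regulators, Cited1 read 0.64 and 1.09 and Ihh -0.83 and -0.65, and neither was called. Of 10 genes of nutrient uptake and of the epithelium, 3 were higher in Nkx2.5 over Rex1: the uptake receptor Cubn, at 1.22 and 1.52 with Rex1 dim, and the keratins Krt8, at 1.51 and 1.43, and Krt18, at 1.85 and 1.99. Amn and Lrp2, which form uptake complexes with Cubn, read 0.05 and -0.25, and -0.31 and -0.42. Over Flk1, 2 of the 10 were higher, the keratins Krt18 and Krt19, at 1.06 and 1.07, and 1.17 and 1.96. Of 7 parietal endoderm genes, Col4a1 (1.86 and 2.99) and Plat (1.47 and 1.56) were higher over Rex1 and Col4a1 also over Bra, at 1.62 and 1.06. Where Rex1 was dim, the ratios do not give an exact fold.

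Of 13 further apolipoprotein and lipoprotein assembly genes on the array, Apoc2, an activator of lipoprotein lipase, was higher in Nkx2.5 cells in all 3 comparisons, at 1.16 and 1.07 over Rex1, 1.36 and 1.56 over Bra, and 1.49 and 1.48 over Flk1. Apom was higher over Bra alone, at 1.34 and 1.56. The median of these genes was -0.02 and -0.23 over Rex1. Of 20 other genes of plasma proteins and of the yolk sac, 3 were higher over Rex1, against 2.6% of all genes: Itih2 at 1.59 and 2.61, Dpp4 at 1.06 and 1.39 and Soat2 at 1.62 and 1.70, the last with Rex1 dim. Itih2 encodes a secreted plasma protein, whereas the products of Dpp4 and Soat2, an enzyme that esterifies cholesterol, sit in membranes. Dpp4, a peptidase, was also higher over Bra (1.89 and 1.74) and Flk1 (2.31 and 1.80), and Itih2 was higher in Bra over Rex1 (2.33 and 1.14). The fibrinogen genes Fga, Fgb and Fgg read -0.19 and -0.04, 0.43 and 0.70, and -0.33 and -0.38 over Rex1. Of 13 receptors and partners of the carriers 0 were called in any of the 6 comparisons, and so were 0 of 7 genes of hepatocyte maturation. At most 2.6% of all genes were called per comparison and direction, so 0 calls in lists of this size say little.

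Some markers of blood and heart muscle were also higher in Nkx2.5 cells. Of 9 primitive blood genes, 4 were higher in Nkx2.5 over Rex1 (2.6% of all genes) and the same 4 over Bra (0.3%), and 2 over Flk1 (0.324%). The other 5 were not called over Rex1, and the list medians there were 0.94 and 1.06. The embryonic globin Hbb-y read 2.57 and 2.18 over Rex1. Of 8 cardiac muscle genes 5 were higher over Rex1, 4 over Bra and 5 over Flk1, with medians over Rex1 of 1.31 and 1.17, and Tnnt2, the gene of cardiac troponin T, read 2.46 and 2.51. The other 3 were not called over Rex1, among them Myh6, a cardiac myosin heavy chain gene, at -0.22 and -0.29. The part of other cell types in the values of the secreted products was not tested.

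The genes whose 5 ratios lay closest to those of the called members were found by Euclidean distance over the log2 ratios. The search covered 13480 named genes well above background in Nkx2.5 on all 3 arrays. Nearest to Ttr were Myl3 (distance 0.698), Tm9sf2 (0.706) and Nrep (0.788). Nearest to Spink1 were St3gal6 (0.752), S100g (0.882) and Tnnt2 (1.08). Nearest to Afp were Nme7 (0.904), Col4a1 (1.15) and Bag2 (1.16). None of the 9 is another member. Only the 3 nearest genes were kept for each, so this does not show how alike the called members were to one another. Myl3 and Tnnt2 encode muscle proteins, and Col4a1 is on the parietal endoderm list above.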

How the data were processed

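RNA was amplified with amino allyl nucleotides before Cy3 or Cy5 coupling, per the labels' protocols, and ratios run Cy5 over Cy3. The sources used here name no scanner software or gene models. Per the file headers, each deposited intensity is a median signal, tested to be net of a background that is constant within each of 48 blocks. The deposited ratio is their quotient, and the deposited series table of the authors holds the log2 ratio of 28524 probes minus 1 constant per array (column medians -0.0846 to -0.00730).

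Signal plus background was corrected by normexp (offset 50) and normalised within arrays by loess in limma 3.58.1 (R 4.3.3), with control spots at weight 0, and tables were made in Python 3.11.15. Probes were named through RefSeq (8056 by accession, 5226 by symbol, 5081 by synonym, 558 by the file's name, 9924 unnamed). Named genes were the members, the genes that name the populations, called genes of the lists and the 3 nearest genes of Afp, Ttr and Spink1. Members named for contrast within a list, such as Hnf4a or Tfrc, were picked after values were seen. Some genes that these rules took are not reported here. Members and lists were chosen with earlier results of these data known. The calling rule was run on simulated ratios of Nkx2.5 over Rex1 alone, with equal and independent errors and without the filter on dim probes. The simulation held no dye or background effects, so it does not bear on those. Alternatives covered background, normalisation, filters, probes and Bad spots. The number of arrays limits the precision.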

Additional observations from a re-analysis of the deposited data

Results flagged for a closer look

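Another 5 probes without a gene name carry a description that names Apob or Apoa4, and they entered no comparison above. Of the 4 described as Apob, 2 read higher in Nkx2.5 cells, on the same arrays but outside the rule for members. The probe ENSMUST00000037458 stood at 1.07, 1.003 and 1.31 channel medians in Nkx2.5 cells, against 0.425 in Rex1, 0.301 in Bra and 0.474 in Flk1 cells on the same arrays, with log2 ratios of 1.79 and 2.11 over Rex1, 1.62 and 1.56 over Bra, and 2.07 and 1.48 over Flk1. It was dim in Rex1 on all 3 arrays. The floor set by the dimmest detected probes gives 3.14-fold in Nkx2.5 over Rex1 cells, and both readings, folds of 3.45 and 4.33, exceed it. It describes signals after background subtraction and is no firm minimum. The probe ENSMUST00000037467 had log2 ratios of 1.05 and 1.23 over Rex1 and 1.16 and 1.59 over Bra, while 1.75 and 0.96 over Flk1 did not pass. The other Apob probes read -0.00 and 0.22 (ENSMUST00000037811) and -0.07 and -0.35 (ENSMUST00000020936) over Rex1, beside -0.50 and -0.38 of the named, dim probe. The probe described as Apoa4 (M64250) read 0.23 and 0.37. Which of the probes matches the Apob transcript was not tested.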

How the results depend on the processing

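Without background subtraction 0 of the 10 genes were called higher in Nkx2.5 over Rex1, 1 over Bra and 1 over Flk1 (Spink1 in both), in place of 3, 3 and 2, and over all genes in Nkx2.5 over Rex1 this setting gave 2 higher calls, against 586 with subtraction. No other setting tried changed a count of members: the deposited ratio, the deposited series table, median centring, normexp without an offset, the mean over probes, a stricter or absent filter on dim probes, and leaving out Bad spots. Of 420 recomputed member ratios 361 moved by less than the average array error and 59 by more, of which 30 were without background subtraction, 13 with the deposited ratio, 13 with the series table and 3 with the mean over probes, and no called value changed sign. The mean over its 3 probes put Alb at 0.12 in place of -0.18 in Nkx2.5 over Rex1. Over all genes the higher calls in Nkx2.5 over Rex1 were 218 with the deposited ratio, 339 with the series table and 378 without Bad spots. No paired analysis was possible because each pair of populations was hybridised on 1 array. Rex1 signals of Afp, Apoa2 and Apob were at background, which limits their folds.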

Other observations

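The dependence of the Bra and Flk1 signals on the partner, seen for Ttr and Spink1, was looked at over other genes, with classes set after values were seen. Among 12 genes at 4 or more channel medians in Nkx2.5 and at a log2 ratio of 1 or more over Rex1 on their array, Ttr and Spink1 included, which prompted the look, the signal beside Nkx2.5 exceeded that beside Rex1 in 12 of 12 for Bra and 12 of 12 for Flk1, with median log2 differences of 0.47 and 0.72. Among 670 genes past the same brightness limit and under 0.5 the medians were -0.38 and -0.02, with 8 and 310 above 0. Among all 669 (Bra) and 607 (Flk1) genes at 1 or more, bright or not, the medians were -0.05 and -0.07. Because the classes were chosen on these values and are not matched in brightness, the counts describe these arrays and are no separate evidence, and what sets the difference was not tested.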
